A study of Drosophila melanogaster with 72 samples.

Results

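Heads of ageing control flies that carried the pan-neuronal driver elav-GAL4 in 1 copy and no huntingtin insert (elav-GAL4/+) are described here. They served as controls in a study of mutant huntingtin in Drosophila melanogaster, in which the driver directs GAL4, a yeast transcription factor, to neurons. The 9 older libraries were made from heads collected at 18, 20 and 22 days after eclosion from flies raised at 29 °C, with 3 libraries per age. The 8 younger libraries were made at 7, 9 and 11 days from flies raised at 28 °C, with 3 libraries at days 7 and 9 and 2 at day 11. These 17 libraries were chosen by driver, genotype and age among the 72 of the series, and the second control library of day 11, the only one of the 72 with its label prefix, was left out by the same rule. Age and the 1 °C difference in temperature cannot be told apart in the comparison of older with younger heads, but ages can be compared within each temperature. Each library held polyadenylated RNA of 50 pooled heads, so neurons, glia, eyes, fat body, muscle and cuticle were measured together. In such whole heads a lower level of a gene may mean fewer cells of a type or less RNA per cell, which cannot be told apart. Sex, time of day, diet and the strain crossed to the driver are not given in the labels used here.

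The ageing fly head is known for rising transcription of innate immune genes and for falling transcription of mitochondrial energy genes. In flies, bacterial cell wall is sensed by peptidoglycan recognition proteins, and the Imd and Toll pathways then switch on antimicrobial peptides that the fat body secretes into the blood. Flies are cold-blooded, and warmer flies age faster.

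The libraries were of like size. The summed value was 18.2 M to 19.9 M in older heads and 19.5 M to 20.7 M in younger heads (M, 1e6), after the authors had scaled every library to an upper quartile of 1000. Depth, estimated from the spacing of low values, was 40.3 M to 44.0 M reads in older heads and 39.8 M to 45.2 M reads in younger heads. None of 136 pairs of libraries was identical. The 3 libraries of day 22 stood farther from each other than those of any other age, and values without them are given where they matter. The gene elav, a neuronal RNA-binding protein from which the driver takes its name, lay between 1616 and 2371 (median 1911) in older heads and between 1518 and 2069.7 (median 1781) in younger heads, and the difference of 0.11 ± 0.051 did not pass the test (log2 ± SE, adjusted p = 0.0983). The glial transcription factor repo differed by 0.17 ± 0.055 (adjusted p = 0.0173), and without day 22 the adjusted p was 0.0732. The male-specific dosage compensation RNA roX1 lay between 295 and 515 (median 355) in older heads and between 232 and 316 (median 262) in younger heads, a difference of 0.43 ± 0.092 (adjusted p = 0.00161). The female yolk protein genes Yp1, Yp2 and Yp3 made up 2.83% to 4.67% of the summed value in older heads and 4.62% to 7.12% in younger heads. The part of the sex ratio in any result below was not tested. Of the 151 genes given with values below, 47 overlap a gene on the opposite strand in the current annotation. Whether the authors' counting used strand is not stated, so reads of such a pair cannot be told apart, and this touches Def, Hsp83, l(2)efl, Atg1, Rh4, Pdh, Mmp1 and CG7763 among others.

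Values are the authors' normalised gene estimates, differences are older minus younger on the log2(value + 1) scale with their SE, and a gene was called at a Benjamini-Hochberg adjusted p under 0.05 in limma over all genes tested. Of 10241 genes tested, 4518 were called (44.1%). Of these, 2449 were higher in older heads (23.9% of genes tested) and 2069 were lower (20.2%). Most differences were small, since 319 genes rose by at least 1 log2 unit (3.11%) and 73 fell by as much (0.713%), and the median difference of all genes was 0.018. In 347 genes every older library lay above every younger one (3.39%), and in 246 genes every older library lay below (2.4%). The fit took the spread between libraries of the same age as error, and the labels do not say whether the libraries of an age came from separate cultures, so this spread may be technical. When the spread between ages was counted as error too, 3207 genes were called (31.3%), and 3203 of them were among the 4518. An exact permutation test over the 6 ages alone, 3 against 3, could not go below p = 0.1. With the left-out day 11 library included, 1597 genes were called. Under quantile normalisation 1913 genes were higher and 2537 lower, so the balance of directions depended on the scaling. Within single label prefixes, which split the libraries into sets of 4 older and 3 younger and of 5 older and 5 younger, 2811 and 2352 genes were called. In the smaller set only day 20 had 2 libraries, so the spread between libraries of the same age came from that age alone.

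Immune effector genes made up the highest list of all that were examined other than gut markers. All 14 antimicrobial peptide genes rose in older heads, against 23.9% of all genes tested, and their median difference was 1.85, against 0.018 for all genes. Def, which encodes the peptide Defensin, lay between 189.7 and 569 (median 405) in older heads and between 35.4 and 152 (median 57.3) in younger heads. The groups did not overlap, and the difference was 2.38 ± 0.20 (adjusted p = 3.67e-07). The cecropin gene CecA1 lay between 208 and 1069.7 (median 486) in older heads and between 10.8 and 441 (median 100.8) in younger heads, a difference of 2.48 ± 0.47 (adjusted p = 0.000583). Its groups overlapped. The day 7 libraries had 130.3, 309.7 and 441, 2 of them above the lowest older library, and the day 11 libraries had only 10.8 and 29.0. CecB, a related cecropin with low values, differed by 2.86 ± 0.39 (adjusted p = 3.14e-05). Drs, which encodes the antifungal peptide Drosomycin and was picked here after its values were seen, lay between 329 and 2795 (median 958) in older heads and between 159.7 and 248 (median 195) in younger heads. It also rose within the 29 °C libraries, with means of 504 at day 18, 1124 at day 20 and 1551 at day 22, a difference of 1.51 ± 0.39 from day 18 to day 22 (adjusted p = 0.0118). Without day 22, where 39.6% of genes were called, all 14 peptides still passed, and with ages pooled in the error 12 of them did. Cecropin genes are close copies of one another, and the authors' counting may have split their reads.

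The age pattern of the peptides was not a steady climb. Between days 7 and 11, within the 28 °C libraries, 9 of the 14 fell and none rose, against 4.33% of all genes lower and 3.96% higher. Between days 18 and 22, within the 29 °C libraries, 1 rose and 1 fell, against 11.8% higher and 13% lower. So older heads stood above younger ones as groups, while Drs was the 1 peptide that rose between ages of the same temperature.

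**Figure D1:**
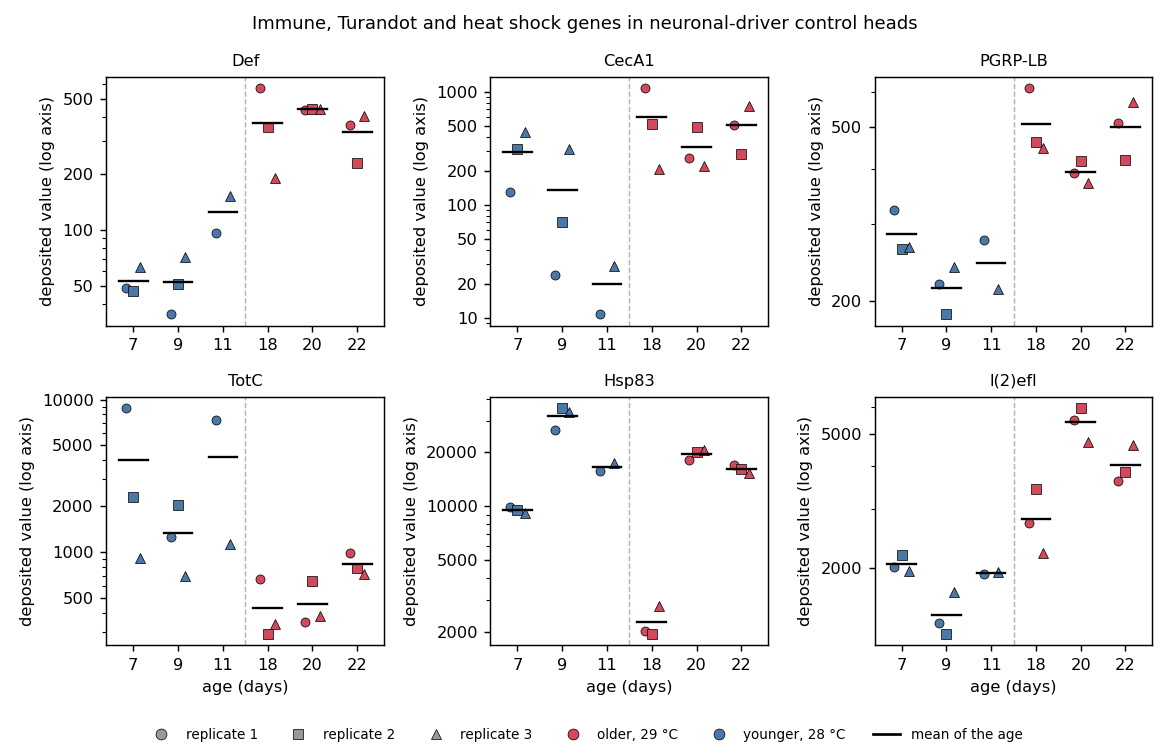
Deposited normalised values (log axis) of 6 genes in the 17 libraries, by age in days. Points are libraries, bars are the means of an age, and the dashed line divides the 28 °C libraries on its left from the 29 °C libraries on its right. Def and PGRP-LB separated the groups, CecA1 was lowest at day 11, and Hsp83 was lowest at day 18 and highest at day 9.

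Of 10 peptidoglycan recognition protein genes tested, 7 rose and 1 fell, against 23.9% and 20.2% of all genes. Within a temperature none rose. From day 7 to day 11, 3 fell, against 4.33% of all genes, and from day 18 to day 22, 5 fell, against 13%. PGRP-LB, an amidase that degrades peptidoglycan and dampens Imd signalling, lay between 372 and 611 (median 448) in older heads and between 187 and 323 (median 252) in younger heads. The groups did not overlap and differed by 0.91 ± 0.087 (adjusted p = 1.15e-06). The amidase gene PGRP-SC2 rose by 2.04 ± 0.33 (adjusted p = 0.000171), and PGRP-SD, a secreted recognition protein, by 0.68 ± 0.080 (adjusted p = 8.85e-06). The single member that fell was PGRP-LD, with -0.20 ± 0.031 (adjusted p = 0.000104). Among 10 tested genes of Toll-induced peptides 3 rose and none fell, a share of rises near the 23.9% of all genes. IM18 lay between 493.4 and 1509.6 (median 587) in older heads and between 65.6 and 689 (median 181) in younger heads (difference 1.99 ± 0.36, adjusted p = 0.000428). The drosomycin-like gene dro5 (now Drsl5) lay between 1062 and 4598 (median 1917) in older heads and between 631 and 938 (median 846) in younger heads, without overlap (difference 1.35 ± 0.19, adjusted p = 4.95e-05).

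The Turandot genes moved the other way. They encode secreted stress peptides of the fat body that JAK/STAT signalling induces after heat, wounding and infection. All 4 that could be tested fell, against 20.2% of all genes, and 3 more were under the minimum value. TotC lay between 290.04 and 985 (median 642) in older heads and between 691 and 8823 (median 1648) in younger heads, a difference of -1.99 ± 0.43 (adjusted p = 0.00161). TotX differed by -1.70 ± 0.26 (adjusted p = 9.33e-05), TotM by -1.55 ± 0.55 (adjusted p = 0.0324) and TotA by -1.27 ± 0.34 (adjusted p = 0.0077). Younger libraries of 1 age were far apart in these genes. At day 7 TotC had 8823, 2301 and 909, and at day 11 it had 7330.1 and 1130.2. Without the first day 11 library the adjusted p of TotM was 0.149.

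Heat shock genes varied from age to age within the groups. Of 18 tested, 9 rose and 4 fell, but with ages pooled in the error only 2 rose and 1 fell. Hsp83, the fly Hsp90 chaperone, averaged 9543 at day 7, 32020.2 at day 9, 16629 at day 11, 2248 at day 18, 19613 at day 20 and 16118 at day 22. Replicates of an age lay close together, so the group difference of -0.95 ± 0.074 passed (adjusted p = 1.88e-07), although the groups overlapped widely and the pooled test gave an adjusted p of 0.189. The co-chaperone DnaJ-1 showed the same, with -0.80 ± 0.070 (adjusted p = 5.58e-07, pooled 0.164). Both were higher, not lower, at day 22 than at day 7, by 0.76 and 0.49. The small heat shock gene l(2)efl, a relative of mammalian alpha-crystallin B, lay between 2224 and 5963 (median 3843) in older heads and between 1279.7 and 2189.5 (median 1931) in younger heads. It had no overlap and a difference of 1.12 ± 0.085 (adjusted p = 1.47e-07). The mitochondrial small heat shock gene Hsp22 differed by 1.16 ± 0.25 (adjusted p = 0.00168, pooled 0.079). Hsp70Bbb, 1 of several nearly identical inducible Hsp70 genes whose reads may have been split, differed by 1.32 ± 0.12 (adjusted p = 5.53e-07, pooled 0.0859). From day 18 to day 22, 12 of the 18 rose and none fell, against 11.8% and 13% of all genes.

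Other parts of protein quality control moved by small amounts. Proteasome genes rose as a group, with 25 of 32 subunits called higher and none lower, against 23.9% and 20.2% of all genes. Their median difference was 0.17. The mean level of the 32 subunits was 10.45 to 10.61 in older heads and 10.29 to 10.47 in younger heads on the log2 scale, and 1 library of each group lay in the overlap. Within the larger label prefix alone, 9 subunits rose and none fell. Pros28.1, a subunit of the proteolytic core now called Prosalpha4, lay between 1243 and 1524 (median 1364) in older heads and between 1033 and 1208 (median 1114) in younger heads (difference 0.31 ± 0.042, adjusted p = 3.14e-05). Prosbeta2, a catalytic subunit, differed by 0.24 ± 0.033 (adjusted p = 3.64e-05). No proteasome gene passed between days 7 and 11 or between days 18 and 22.

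Among 18 autophagy genes 2 rose and 6 fell, where 23.9% of all genes rose and 20.2% fell. The kinase gene Atg1, which starts autophagosome formation, lay between 2145 and 2543 (median 2215) in older heads and between 2526 and 4995 (median 3159) in younger heads (difference -0.58 ± 0.13, adjusted p = 0.00213). Atg2, a lipid transfer protein of the forming autophagosome, fell without overlap (-0.27 ± 0.038, adjusted p = 4.35e-05). The cargo adaptor ref(2)P, the fly p62 that autophagy consumes, rose by 0.27 ± 0.039 (adjusted p = 6.34e-05), and CG31033 (Atg16) rose by 0.33 ± 0.038 (adjusted p = 7.17e-06). Of 12 genes of the endoplasmic reticulum stress response 1 rose and 4 fell. Pdi, a disulphide isomerase, differed by -0.26 ± 0.035 (adjusted p = 2.53e-05). The chaperone Hsc70-3 (BiP) differed by -0.12 ± 0.039 and the transcription factor Xbp1 by 0.13 ± 0.045, and both lost the call with ages pooled (adjusted p = 0.542 and 0.149). V-ATPase subunits, which acidify lysosomes and synaptic vesicles, had 2 of 21 higher and 3 lower, or 4 higher and 2 lower under quantile normalisation.

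Mitochondrial energy genes fell together. Of 22 complex I genes tested 16 fell, of 21 genes of complexes II to IV and cytochrome c 16 fell, and of 12 ATP synthase genes 11 fell, against 20.2% of all genes, and no member of the 3 lists rose. Median differences were -0.19, -0.23 and -0.31. The counts were the same with ages pooled in the error, and without day 22 they were 16, 18 and 12. CG1746 (ATPsynC), the ring subunit of the ATP synthase, lay between 17211 and 19689 (median 18463) in older heads and between 23061 and 26541 (median 23964) in younger heads. It did not overlap and fell by 0.40 on the log2 scale (SE 0.032, adjusted p = 2.55e-07). ATPsyn-gamma, the rotor stalk, differed by -0.49 ± 0.042 (adjusted p = 4.27e-07), and ATPsyn-b by -0.47 ± 0.044 (adjusted p = 1.05e-06). In complex I, CG1970 (ND-49) lay between 4122 and 5117 (median 4499) in older heads and between 5228 and 6591 (median 6131) in younger heads, without overlap (-0.42 ± 0.042, adjusted p = 1.94e-06). The acyl carrier protein mtacp1 differed by -0.31 ± 0.032 (adjusted p = 2.37e-06).

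Genes of the other complexes fell by like amounts. CG3560 (UQCR-14) of complex III differed by -0.30 ± 0.028 (adjusted p = 8.68e-07), CG10664 (COX4) of complex IV by -0.32 ± 0.063 (adjusted p = 0.000769) and Cyt-c-p, the cytochrome c of somatic tissue, by -0.30 ± 0.033 (adjusted p = 4.5e-06). The mean level of the 12 ATP synthase genes was 12.3 to 12.5 in older heads and 12.6 to 12.9 in younger heads on the log2 scale, with no overlap. That of the complex I genes was 11.078 to 11.198 in older heads and 11.202 to 11.427 in younger heads, also without overlap. A pair of antioxidant enzymes that work inside mitochondria also fell. Sod2, the manganese superoxide dismutase, lay between 1823 and 2004 (median 1928) in older heads and between 2029.99 and 2408 (median 2253) in younger heads (difference -0.22 ± 0.034, adjusted p = 0.000131), and the peroxiredoxin Prx5 differed by -0.31 ± 0.043 (adjusted p = 3.92e-05).

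Of all genes 23.9% rose and 20.2% fell. Genes for the mitochondrial ribosome had 4 of 72 higher and 9 lower and a median of 0.006. Of 86 cytosolic ribosomal protein genes 30 fell and 2 rose, with a median of -0.074. RpL10Ab lay between 18064 and 24899 (median 20758) in older heads and between 25319.5 and 27274 (median 26549) in younger heads (difference -0.31 ± 0.048, adjusted p = 9.25e-05). Under quantile normalisation the split of this list was 11 higher and 18 lower, where 1913 of all 10241 genes were higher and 2537 lower. The list medians within the smaller and larger label prefix were -0.006 and -0.129. In glycolysis 8 of 12 genes fell and none rose. Gapdh1 differed by -0.38 ± 0.048 (adjusted p = 1.66e-05) and Pgk by -0.35 ± 0.049 (adjusted p = 4.78e-05). Glycolysis genes also moved within a temperature. At day 11, 7 of 12 were lower than at day 7, against 4.33% of all genes. At day 22, 5 of 12 were higher than at day 18, against 11.8%. In the 55 respiratory genes tested, 2 fell from day 7 to day 11, 1 fell from day 18 to day 22 and none rose.

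**Figure D2:**
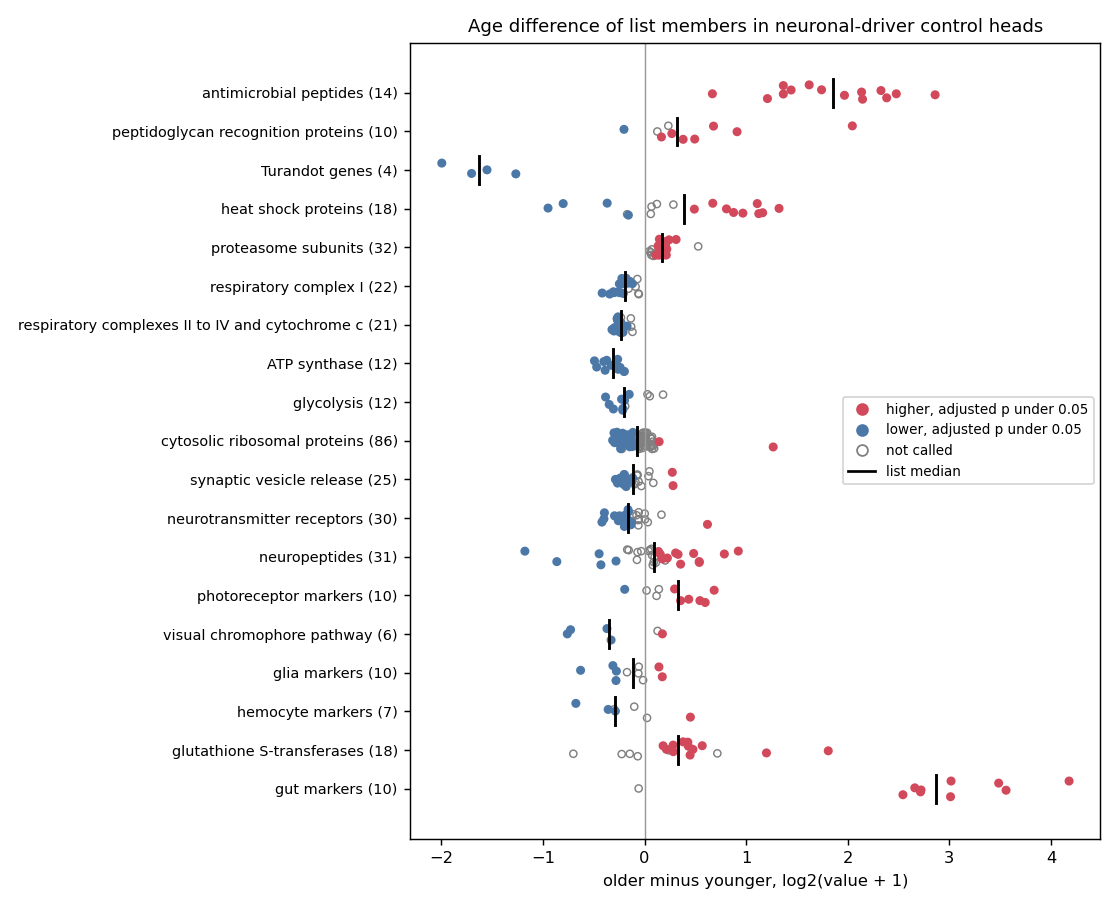
Difference between older and younger heads, in log2(value + 1), for every tested member of 19 gene lists, with the number tested in brackets. Filled points passed at an adjusted p under 0.05, open points did not, and bars are list medians. Antimicrobial peptides and gut markers lie to the right, Turandot genes to the left, and the respiratory lists in a narrow band left of 0.

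**Figure D3:**
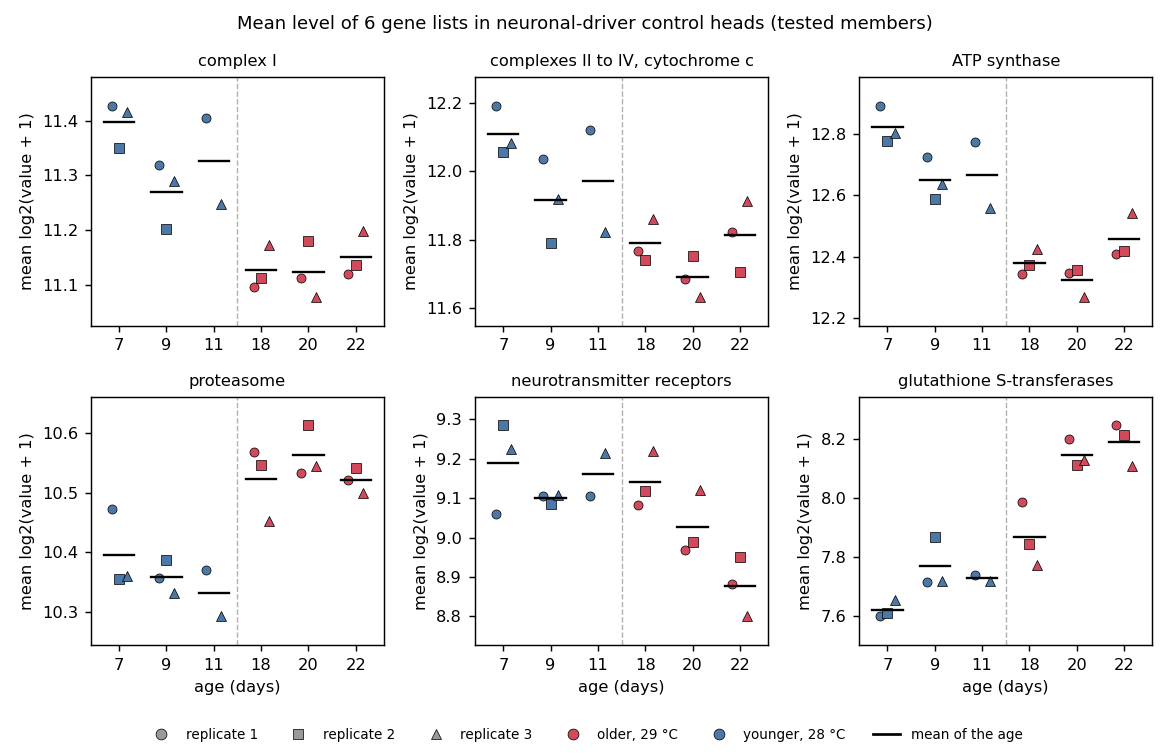
Mean log2(value + 1) over the tested members of 6 lists in each of the 17 libraries, by age in days. Bars are means of an age and the dashed line divides 28 °C from 29 °C. The ATP synthase and complex I lists show no overlap between older and younger libraries, complex I by a narrow margin (11.198 against 11.202). Neurotransmitter receptors were lowest at day 22.

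Genes of nerve terminals were lower in part. Of 25 synaptic vesicle genes 13 fell and 2 rose, and of 30 neurotransmitter receptor genes 17 fell and 1 rose. Of all genes 20.2% fell and 23.9% rose. Both counts were smaller without the oldest libraries. Without day 22, 4 vesicle genes and 6 receptor genes were lower, and 18 genes of each list were lower at day 22 than at day 18. The serotonin receptor gene 5-HT2 lay between 548 and 870.03 (median 686) in older heads and between 843 and 1040.2 (median 919) in younger heads (difference -0.42 ± 0.053, adjusted p = 1.72e-05). The nicotinic acetylcholine receptor subunit nAcRbeta-64B differed by -0.40 ± 0.051 (adjusted p = 2.04e-05). The receptor that rose was the nicotinic subunit nAcRalpha-7E, at values of between 14.04 and 32.4 (median 25.4) in older heads and between 8.71 and 21.2 (median 15.4) in younger heads. Its adjusted p was 0.0226, and 0.107 without the third day 11 library.

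Vesicle genes split by member. The fusion ATPase comt (NSF) lay between 4684 and 6775 (median 5688) in older heads and between 6452 and 7479 (median 6778) in younger heads (difference -0.29 ± 0.040, adjusted p = 3.99e-05). Sap47 differed by -0.27 ± 0.045 (adjusted p = 0.000245) and the endocytic gene endoA by -0.25 ± 0.036 (adjusted p = 5.24e-05). The calcium sensor Syt1 differed by -0.24 ± 0.053 (adjusted p = 0.00198), and by -0.14 without day 22 (adjusted p = 0.0747). The 2 members that rose were n-syb, the vesicle fusion protein synaptobrevin, with 0.28 ± 0.043 (adjusted p = 9.7e-05) and no overlap, and the active zone scaffold brp, with 0.27 ± 0.067 (adjusted p = 0.00387). Neuron markers had 2 of 9 higher and 2 lower, near the 23.9% and 20.2% of all genes, and a median of 0.039.

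Neuropeptide genes moved in both directions. Of 31 neuropeptide genes tested 12 rose and 5 fell, against 23.9% and 20.2% of all genes. Ilp5, an insulin-like peptide of brain neurosecretory cells, lay between 128 and 361 (median 202) in older heads and between 331 and 691 (median 421) in younger heads (difference -1.18 ± 0.15, adjusted p = 1.74e-05). Ilp2, made by the same cells, differed by -0.45 ± 0.058 (adjusted p = 2.04e-05). The precursor gene Nplp3 lay between 1069 and 1743 (median 1369) in older heads and between 2174 and 3278 (median 2459.5) in younger heads, without overlap (-0.86 ± 0.073, adjusted p = 3.67e-07). In the other direction Mip, the myoinhibitory peptide precursor, lay between 1593 and 2199.6 (median 1907) in older heads and between 951 and 1232 (median 1044) in younger heads, also without overlap (0.79 ± 0.054, adjusted p = 6.25e-08). Nplp4 rose by 0.92 ± 0.11 (adjusted p = 1.3e-05) and capa, the capability peptide precursor, by 0.54 ± 0.070 (adjusted p = 2.32e-05). Among neuropeptides 8 of 31 rose between days 7 and 11, against 3.96% of all genes. Between days 18 and 22, 8 fell, against 13%. Neither step had a call in the other direction.

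Of 17 insulin pathway genes 5 rose and 3 fell, near the 23.9% and 20.2% of all genes, with a median of -0.034. ImpL2, a secreted protein that binds insulin-like peptides and blocks them, lay between 1159 and 1527 (median 1317) in older heads and between 710.6 and 932 (median 837) in younger heads. The groups did not overlap and differed by 0.69 ± 0.057 (adjusted p = 3.02e-07). The fat body peptide Ilp6 differed by 0.50 ± 0.076 (adjusted p = 9.18e-05), but by -0.91 from day 18 to day 22 and by 1.02 from day 7 to day 11, and its pooled adjusted p was 0.0697.

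Among opsin genes of the inner photoreceptors of the eye, Rh4, Rh6 and Rh3 rose, and they are named as the largest rises of their list. Rh4, an ultraviolet opsin, lay between 49541 and 65537 (median 56711) in older heads and between 29137 and 47632 (median 32956) in younger heads, with no overlap (0.69 ± 0.064, adjusted p = 9.2e-07). The green opsin Rh6 lay between 13544 and 18169.7 (median 16235) in older heads and between 9194 and 11677 (median 10961) in younger heads, again without overlap (0.60 ± 0.053, adjusted p = 5.69e-07), and the ultraviolet opsin Rh3 differed by 0.55 ± 0.053 (adjusted p = 1.37e-06). Of 10 photoreceptor markers 6 rose and 1 fell, and of 24 phototransduction genes 9 rose and 6 fell. Of all genes 23.9% rose and 20.2% fell. Gbeta76C, the eye-specific G protein beta subunit that couples rhodopsin to phospholipase C, went the other way. It lay between 10523 and 15892 (median 11639) in older heads and between 15975 and 17988 (median 17315) in younger heads, without overlap (-0.47 ± 0.038, adjusted p = 2.86e-07).

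The pathway that supplies the retinal chromophore fell in 4 of 6 genes and rose in 1, against 20.2% and 23.9% of all genes. Pdh, a retinol dehydrogenase of the retinal pigment cells, lay between 6788 and 9179 (median 8532) in older heads and between 10964 and 16066 (median 14397) in younger heads. It did not overlap and differed by -0.76 ± 0.063 (adjusted p = 3.11e-07). The retinoid-binding protein gene pinta also fell without overlap (-0.37 ± 0.044, adjusted p = 9.97e-06). The carotenoid scavenger receptor ninaD differed by -0.73 ± 0.13 (adjusted p = 0.000461), but was higher at day 22 than at day 18 by 1.16 ± 0.22 (adjusted p = 0.00182). The tan gene t, whose product frees histamine for photoreceptor transmission, lay between 3649 and 4891 (median 4428) in older heads and between 5879.7 and 8379 (median 7424) in younger heads, without overlap (-0.77 ± 0.048, adjusted p = 2.67e-08). The eye pigment transporter gene w did not pass, with between 328 and 517 (median 452) in older heads and between 394 and 839 (median 425) in younger heads (-0.17 ± 0.073, adjusted p = 0.0736).

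Clock genes differed in both directions, with 5 of 10 higher and 4 lower, against 23.9% and 20.2% of all genes. The cycle runs over a day, so their levels depend on the hour of collection, which was not given. The repressor tim lay between 9867 and 16722 (median 11654) in older heads and between 13692 and 20179 (median 16475) in younger heads (difference -0.41 ± 0.050, adjusted p = 1.18e-05). The activator cyc fell without overlap (-0.27 ± 0.041, adjusted p = 9.34e-05). The transcription factor gene vri differed by 0.41 ± 0.045 (adjusted p = 4.5e-06), the blue-light receptor cry by 0.32 ± 0.044 (adjusted p = 3.23e-05) and the clock neuropeptide Pdf by 0.36 ± 0.061 (adjusted p = 0.000245).

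Glial and blood cell markers were lower in part. Of all genes 20.2% fell and 23.9% rose. Among 10 glia markers 4 fell and 2 rose. The astrocyte gene alrm lay between 696 and 1344 (median 1106) in older heads and between 1210.1 and 1947 (median 1870.01) in younger heads (difference -0.63 ± 0.13, adjusted p = 0.00116). The glutamate transporter Eaat1 fell without overlap (-0.28 ± 0.038, adjusted p = 3.39e-05). The 2 members that rose were repo, given above, and the midline and cortex glia gene wrapper (0.14 ± 0.044, adjusted p = 0.0173, pooled 0.0897). Of 12 engulfment and scavenger receptor genes 2 fell and none rose, a share of falls near the 20.2% of all genes. Of 7 hemocyte markers, which mark macrophage-like blood cells, 3 fell and 1 rose. Hml, the hemolectin of plasmatocytes, lay between 1944 and 3542 (median 2524) in older heads and between 3073 and 5147 (median 4162) in younger heads (difference -0.68 ± 0.12, adjusted p = 0.000342). The GATA factor srp differed by -0.36 ± 0.072 (adjusted p = 0.00096) and the peroxidasin Pxn by -0.29 ± 0.049 (adjusted p = 0.000228). Basement membrane genes, which blood cells and fat body produce, fell in 4 of 9 cases. The laminin gene LanB1 fell without overlap (-0.45 ± 0.075, adjusted p = 0.000208). The collagen IV gene vkg differed by -0.35 ± 0.11 (adjusted p = 0.0211), and by -0.30 without day 22 (adjusted p = 0.0775). LanB2 rose by 0.18 ± 0.061 (adjusted p = 0.0229), a call that was lost with ages pooled (adjusted p = 0.214).

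Detoxification genes moved mainly upward in 1 family. Of 18 glutathione S-transferase genes 12 rose and none fell, against 23.9% and 20.2% of all genes. GstD1, the most abundant of those named here, lay between 8989.7 and 15656 (median 11565) in older heads and between 7079.9 and 8965 (median 7919) in younger heads, without overlap (0.57 ± 0.047, adjusted p = 3.29e-07). GstD2 lay between 121 and 175 (median 142) in older heads and between 44.7 and 93.3 (median 62.9) in younger heads, also apart (1.20 ± 0.082, adjusted p = 5.9e-08), and GstD5 differed by 1.81 ± 0.27 (adjusted p = 6.62e-05). Cytochrome P450 genes went both ways, with 19 of 77 higher and 19 lower. Cyp4p2 rose and Cyp4c3 fell, each without overlap. Their differences were 1.03 ± 0.084 (adjusted p = 2.86e-07) and -1.03 ± 0.071 (adjusted p = 6.25e-08). Cyp4d1 also rose without overlap (1.02 ± 0.11, adjusted p = 2.91e-06), and Cyp6a21 fell (-0.88 ± 0.075, adjusted p = 4.07e-07).

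Of 19 antioxidant genes 7 rose and 4 fell, where 23.9% of all genes rose and 20.2% fell. PHGPx, a glutathione peroxidase homologue, lay between 3475 and 4574 (median 3771) in older heads and between 2510.1 and 3459 (median 3041) in younger heads (difference 0.37 ± 0.043, adjusted p = 8.07e-06). The thioredoxin reductase Trxr-1 differed by 0.36 ± 0.064 (adjusted p = 0.00033) and Keap1, the cytoplasmic inhibitor of the antioxidant factor CncC, by 0.34 ± 0.040 (adjusted p = 8.85e-06). Of 9 metallothionein and iron genes 4 rose and none fell. The transferrin Tsf3 lay between 609.9 and 806 (median 724) in older heads and between 438 and 502 (median 476) in younger heads, without overlap (0.60 ± 0.053, adjusted p = 5.66e-07), and the ferritin heavy chain Fer1HCH differed by 0.19 ± 0.045 (adjusted p = 0.00324).

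Some targets of JNK, a stress-activated kinase pathway, rose. Of 16 genes of JNK signalling and cell death 6 rose and 3 fell, against 23.9% and 20.2% of all genes, with a median of 0.155. Under quantile normalisation 5 rose and 4 fell, with a median of -0.092. The matrix metalloprotease Mmp1 lay between 1160.5 and 1527 (median 1392) in older heads and between 753 and 859.96 (median 799) in younger heads, with no overlap (0.76 ± 0.041, adjusted p = 7.71e-09). Gadd45, a stress-induced regulator of kinase signalling, lay between 592 and 1039 (median 749) in older heads and between 352 and 523 (median 425) in younger heads, also apart (0.79 ± 0.077, adjusted p = 1.4e-06). The JNK phosphatase puc, a feedback target of the pathway, differed by 0.49 ± 0.035 (adjusted p = 1.02e-07).

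Of 18 genes of lipid metabolism 6 rose and 3 fell, near the 23.9% and 20.2% of all genes. From day 7 to day 11, 1 rose and 7 fell, against 3.96% and 4.33% of all genes. From day 18 to day 22, 2 rose and 5 fell, against 11.8% and 13%. The triglyceride lipase bmm differed by 0.45 ± 0.062 (adjusted p = 3.91e-05), but fell by 1.25 on the log2 scale from day 7 to day 11 (adjusted p = 2.38e-05), and its pooled adjusted p was 0.21. The fatty acid synthesis gene ACC differed by -0.27 ± 0.065 (adjusted p = 0.00362, pooled 0.0664). Yolk proteins are made in the fat body of females, that of the head included. Yp1 lay between 229629 and 415299 (median 326524) in older heads and between 427167 and 595868 (median 494195) in younger heads, without overlap (-0.65 ± 0.12, adjusted p = 0.000356), Yp2 differed by -0.91 ± 0.11 (adjusted p = 1.62e-05) and Yp3 by -0.90 ± 0.13 (adjusted p = 5.66e-05). Under quantile normalisation the difference of Yp1 was -0.20 (adjusted p = 0.125). Of 8 fat body markers 4 fell and none rose. Of 7 methionine cycle genes 2 fell and none rose.

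Chemosensory and cuticle genes moved in both directions. Of all genes 23.9% rose and 20.2% fell. Of 25 odorant-binding protein genes tested 10 rose and 5 fell. Obp99a lay between 845 and 2629 (median 1584) in older heads and between 2386 and 5872 (median 4415) in younger heads (difference -1.37 ± 0.16, adjusted p = 9.67e-06), and Obp44a differed by -0.48 ± 0.091 (adjusted p = 0.000634). Obp99b, Obp99d and Obp56a rose, by 1.79 ± 0.35 (adjusted p = 0.000768), 1.44 ± 0.13 (adjusted p = 5.68e-07) and 0.93 ± 0.089 (adjusted p = 1.23e-06). The odorant co-receptor Orco, needed by most olfactory receptor neurons, lay between 14.2 and 63.2 (median 26.7) in older heads and between 38.5 and 67.9 (median 61.0) in younger heads (difference -1.01 ± 0.18, adjusted p = 0.000407). Only 37 of 181 chemoreceptor genes were above the minimum value, of which 6 rose and 3 fell, both below the shares of all genes. Under quantile normalisation 3 of them rose and 9 fell. Or13a was lower (-0.80 ± 0.22, adjusted p = 0.00822) and Ir31a higher (1.23 ± 0.22, adjusted p = 0.000364). Of 33 tested cuticle protein genes 12 rose and 7 fell, or 7 and 11 under quantile normalisation. Cpr64Ac lay between 32.4 and 52.2 (median 39.3) in older heads and between 5.62 and 10.1 (median 6.72) in younger heads, and Cpr49Ae lay between 99.9 and 135 (median 119) in older heads and between 217 and 326 (median 279.97) in younger heads. Neither overlapped, and they differed by 2.36 ± 0.15 (adjusted p = 3.58e-08) and -1.22 ± 0.056 (adjusted p = 1.76e-09). The younger median of Cpr64Ac was under the minimum value of 10 in the filter, which all its older libraries passed. Edg91 rose by 1.74 ± 0.13 (adjusted p = 1.77e-07).

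Markers of organs outside the head moved with age as well. Of 10 gut markers tested, from a list of digestive proteases and an amylase gene, 9 rose and none fell. Of all genes 23.9% rose and 20.2% fell. The summed value of the 13 gut markers was 10549.9, 703.6 and 31942 in the 3 day 22 libraries, between 1288 and 2423 in the other 6 older libraries, and between 569 and 1357 in the younger ones. So 2 day 22 libraries were far above all others, the second day 22 library lay within the younger range, and 1 of the 6 libraries of days 18 and 20 lay in it too. The protease Jon65Aiv lay between 59.6 and 11872 (median 285) in older heads and between 3.60 and 58.4 (median 35.8) in younger heads (difference 4.18 ± 0.80, adjusted p = 0.000629). Trypsin genes betaTry and alphaTry differed by 3.56 ± 0.73 (adjusted p = 0.00113) and 3.48 ± 0.74 (adjusted p = 0.00141). Without day 22 these 3 differences were 3.36, 3.14 and 3.02, and 9 gut markers still rose. Trypsin genes lie in a cluster of close copies, and their reads may have been split.

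Ovary markers had low values in most libraries. Their summed value over 8 genes was 193, 1015 and 165 at day 22, 40.3 to 156 at days 18 and 20, and 20.8 to 134 in younger heads. Of 7 tested 5 rose, against 23.9% of all genes, but 1 did without day 22, against 22.4%. The germ plasm gene osk had 316 in the second day 22 library and between 1.40 and 32.4 in the other older libraries. Its adjusted p was 0.0273, and 0.281 without day 22. The part of gut and ovary tissue in the other results was not tested. Muscle markers had 3 of 10 higher and 2 lower, near the 23.9% and 20.2% of all genes. Act57B and Mhc differed by 0.29 ± 0.086 (adjusted p = 0.0125, pooled 0.0519) and -0.21 ± 0.079 (adjusted p = 0.0403, pooled 0.0659), and the flight muscle actin Act88F, at low values, by -0.82 ± 0.15 (adjusted p = 0.00057). Of 5 male germline and accessory gland markers found, 1 was tested and did not pass.

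**Figure D4:**
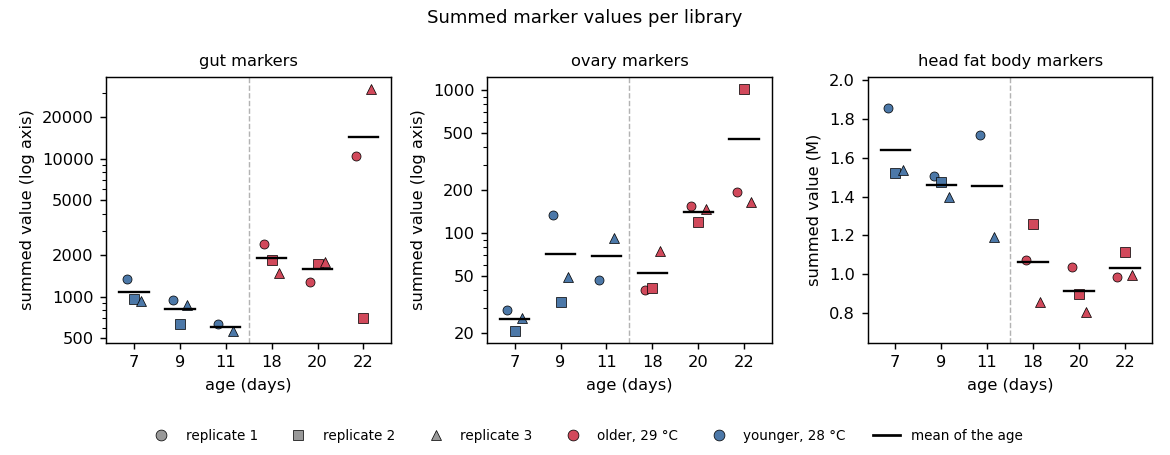
Summed value of gut, ovary (both on log axes) and head fat body markers (linear axis, M = 1e6) in each of the 17 libraries, by age in days. Bars are means of an age and the dashed line divides 28 °C from 29 °C. Gut markers were highest in day 22 replicates 1 and 3, and ovary markers in day 22 replicate 2, and fat body markers were lower in all but 1 older library than in every younger one.

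The largest single fall was in CG17386, now called Achl (achilles), a gene whose daily cycling is known and whose loss in neurons is known to raise immune gene expression. It lay between 74.9 and 358 (median 237) in older heads and between 1896 and 3391 (median 2796) in younger heads. Every older library was below every younger one, and the difference was -3.85 ± 0.085 (adjusted p = 1.21e-13). Means were 87.2 at day 18, 238 at day 20 and 297 at day 22, so it was higher at day 22 than at day 18 by 1.76 ± 0.14 (adjusted p = 1.66e-06). From day 7 to day 11 it did not pass (-0.39 ± 0.16, adjusted p = 0.149). Next among genes with separate groups and a mean of at least 100 came CG33301 (-1.52 ± 0.28, adjusted p = 0.000433), the cathepsin-like CG11459 or CtsL3 (-1.50 ± 0.12, adjusted p = 1.75e-07), CG34180 (-1.49 ± 0.086, adjusted p = 1.46e-08) and CG34134 (-1.41 ± 0.073, adjusted p = 5.68e-09). CG34134 was even among replicates, at between 365 and 447 (median 402) in older heads and between 878 and 1415 (median 1026) in younger heads. CG17108 lay between 6937 and 14729 (median 8517) in older heads and between 18386 and 42784 (median 22773) in younger heads (-1.37 ± 0.096, adjusted p = 7.41e-08). CG30263, now stum, a gene of mechanosensory neurons, differed by -1.31 ± 0.081 (adjusted p = 2.67e-08), the P450 gene Cyp4d21 by -1.24 ± 0.11 (adjusted p = 5.58e-07) and CG10553 by -1.21 ± 0.074 (adjusted p = 2.55e-08).

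The largest rises among genes with separate groups included gut-type genes. Apart from Jon65Aiv, they were CG7763, CG14191, yip7, Bace, CG8997, Jon99Fii, CG5150, CG10592 and lectin-37Db. CG7763, a lectin-like gene, was high at all older ages. It lay between 94.7 and 787 (median 311) in older heads and between 8.15 and 51.3 (median 20.7) in younger heads (3.70 ± 0.28, adjusted p = 1.5e-07), and differed by 4.08 without day 22. CG14191 lay between 39.7 and 295 (median 80.02) in older heads and between 2.36 and 31.4 (median 4.39) in younger heads (3.61 ± 0.32, adjusted p = 5.58e-07). Its younger median was under the minimum value of 10 in the filter, which all its older libraries passed. The protease gene yip7 reached 9153 in the third day 22 library, against a median of 62.8 in older heads and 14.95 in younger heads. Its difference was 3.60 ± 0.74 (adjusted p = 0.00116), and 2.22 without day 22. The aspartic protease Bace, the alkaline phosphatase genes CG5150 (Alp9) and CG10592 (Alp10) and lectin-37Db differed by 3.42, 3.20, 3.19 and 3.12. Without day 22 the first 3 of them differed by 2.80, 2.20 and 2.49, and lectin-37Db was under the minimum value.

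Ages within a temperature were also compared, where the 1 °C difference plays no part. Between days 22 and 18, 2537 of 10241 genes were called (24.8%), and between days 11 and 7, 849 genes (8.29%). The first of these counts held 1208 higher and 1329 lower genes, or 917 and 1760 under quantile normalisation. The second held 406 higher and 443 lower genes, or 282 and 537 under median-ratio rescaling and 256 and 392 under quantile normalisation. With the left-out day 11 library in the fit, the counts were 213 and 141 genes. Of the 4518 genes called between older and younger heads, 1434 were also called between days 22 and 18, 917 of them in the same direction. These comparisons share the day 18 and day 22 libraries, so the overlap is a count only. In all 3 comparisons 62 of the 10241 genes tested were higher at the later ages and 48 were lower. These genes were picked by their calls in the same libraries, so their differences are not separate evidence. Among those with the largest differences, the non-coding gene CR43086 lay between 80.9 and 164 (median 117) in older heads and between 29.9 and 73.0 (median 43.3) in younger heads. It differed by 1.35 ± 0.094 between the groups (adjusted p = 7.22e-08), by 0.47 from day 18 to day 22 and by 0.94 from day 7 to day 11. CG34227 lay between 1393 and 2989 (median 1909) in older heads and between 523 and 1385 (median 802) in younger heads, a difference of 1.24 ± 0.11 (adjusted p = 4.52e-07), with 0.60 and 0.97 within the temperatures. Among falling genes CG4000 and t did not overlap between the groups. CG4000 differed by -0.93 ± 0.049 (adjusted p = 6.13e-09), with -0.23 and -0.35 within the temperatures, and t by -0.29 and -0.30. CG9629, now Aldh7A1, an aldehyde dehydrogenase, differed by -0.63 ± 0.061 (adjusted p = 1.34e-06), and the neprilysin-like CG14523 (Nepl19) by -0.77 ± 0.076 (adjusted p = 1.55e-06).

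Several of these genes did not change evenly with age. The repressor gene h, hairy, averaged 569.8 at day 7, 1293 at day 9, 935 at day 11, 869.6 at day 18, 1439 at day 20 and 2534 at day 22. Between days 11 and 18 its difference of -0.10 did not pass (adjusted p = 0.497). CG11741 and CG1979 and the vitelline membrane gene Vm26Aa went against their group difference between days 11 and 18, by -0.41, 1.04 and -2.16. Group differences of 0.84 ± 0.12, -0.94 ± 0.10 and 1.44 ± 0.33 for these 3 genes therefore rest on the choice of ages. Pooled adjusted p-values were 0.142, 0.0177 and 0.0782.

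Glial-driver controls gave a separate comparison over age at 1 temperature. These flies carried repo-GAL4 in 1 copy without a huntingtin insert (repo-GAL4/+), were kept at 28 °C throughout, and were sampled at 18, 20 and 22 days and at 5, 7 and 8 days with 3 libraries per age. They share no library with the elav-GAL4/+ heads. In these 18 libraries 3906 of 10354 genes were called between older and younger heads (37.7%), 2244 higher (21.7%) and 1662 lower (16.1%). Of 10130 genes tested in both drivers, 4469 were called in elav-GAL4/+ heads and 3869 in repo-GAL4/+ heads, and 2451 were called in both with the same direction. These are 54.8% of the first set and 63.3% of the second, and 78 genes were called in opposite directions. Across genes, which are not independent, Pearson's r between the differences was 0.7.

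All 14 antimicrobial peptides rose in both drivers, with medians of 1.85 in elav-GAL4/+ heads and 3.11 in repo-GAL4/+ heads. In repo-GAL4/+ heads all 12 ATP synthase genes fell, with a median of -0.37, and 16 of 22 complex I genes fell, with a median of -0.22. Def differed by 1.89 ± 0.13 (adjusted p = 3.14e-08), CG1746 by -0.40 ± 0.047 (adjusted p = 7.42e-06), Mip by 0.98 ± 0.069 (adjusted p = 6.51e-08) and Rh4 by 0.84 ± 0.074 (adjusted p = 4.16e-07). ImpL2 differed by 1.07 ± 0.096 (adjusted p = 4.52e-07), and the difference between drivers was -0.38 ± 0.12 (adjusted p = 0.0398). Of 32 proteasome genes 25 were higher in elav-GAL4/+ heads and 10 in repo-GAL4/+ heads, where 21.7% of all genes were higher. The difference itself was tested in a fit of all 35 driver control libraries. It was called for 1039 of 10620 genes (9.78%), with 537 where elav-GAL4/+ heads had the higher age difference (5.06%) and 502 where they had the lower one (4.73%). No complex I, ATP synthase or proteasome gene was among them, and 5 of the 14 antimicrobial peptides had a lower age difference in elav-GAL4/+ heads. Younger ages, temperature and the driver differ between these sets and cannot be told apart.

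Turandot genes went in opposite directions. All 4 had a lower age difference in elav-GAL4/+ heads, and 3 of them rose with age in repo-GAL4/+ heads. TotC differed by -1.99 with age in elav-GAL4/+ heads and by 2.02 in repo-GAL4/+ heads, a difference of -4.02 ± 0.74 (adjusted p = 0.000517). TotA and TotM differed in the same sense, by -2.99 ± 0.51 (adjusted p = 0.000223) and -2.84 ± 0.78 (adjusted p = 0.0172). Heat shock genes were lower in their age difference in 9 of 18 cases and higher in 1. Neuropeptide genes were lower in 9 of 31 and higher in 1, and phototransduction genes lower in 8 of 24. Of all genes 4.73% were lower in this difference and 5.06% higher. Hsp70Ab lay between 455 and 2531 (median 1759) in older and between 314 and 12104 (median 542) in younger elav-GAL4/+ heads, which did not pass (0.062 ± 0.16, adjusted p = 0.782), whereas it lay between 744 and 29019.7 (median 1577) in older and between 233 and 474 (median 285) in younger repo-GAL4/+ heads. The difference between drivers was -3.09 ± 0.48 (adjusted p = 7.87e-05). Achl (CG17386) fell in both. It lay between 195 and 2875 (median 815) in older and between 2359 and 3159 (median 2884) in younger repo-GAL4/+ heads, and its fall was larger in elav-GAL4/+ heads, by a difference of -2.24 ± 0.21 (adjusted p = 1.08e-07).

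In the other direction, 6 of 9 basement membrane genes and 5 of 7 hemocyte markers had a higher age difference in elav-GAL4/+ heads. So did 6 of 12 engulfment receptor genes, with 1 lower, and 8 of 25 odorant-binding protein genes. Of all genes 5.06% were higher in this difference and 4.73% lower. The collagen gene vkg differed by -0.35 with age in elav-GAL4/+ heads and -1.27 in repo-GAL4/+ heads (difference 0.92 ± 0.19, adjusted p = 0.0014). Cyp4d1 rose by 1.02 in elav-GAL4/+ heads and fell by 1.12 on the log2 scale in repo-GAL4/+ heads (difference 2.14 ± 0.17, adjusted p = 3.04e-09). The carbonic anhydrase gene CG18673 (CAH5) lay between 31.4 and 221 (median 112) in older and between 4.98 and 42.2 (median 19.3) in younger elav-GAL4/+ heads, and between 23.9 and 249.9 (median 183) in older and between 24.2 and 294 (median 153) in younger repo-GAL4/+ heads (difference 2.38 ± 0.55, adjusted p = 0.0049). CG30059 and CG9377 differed by 2.10 ± 0.46 (adjusted p = 0.00315) and 1.50 ± 0.26 (adjusted p = 0.000251).

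**Figure D5:**
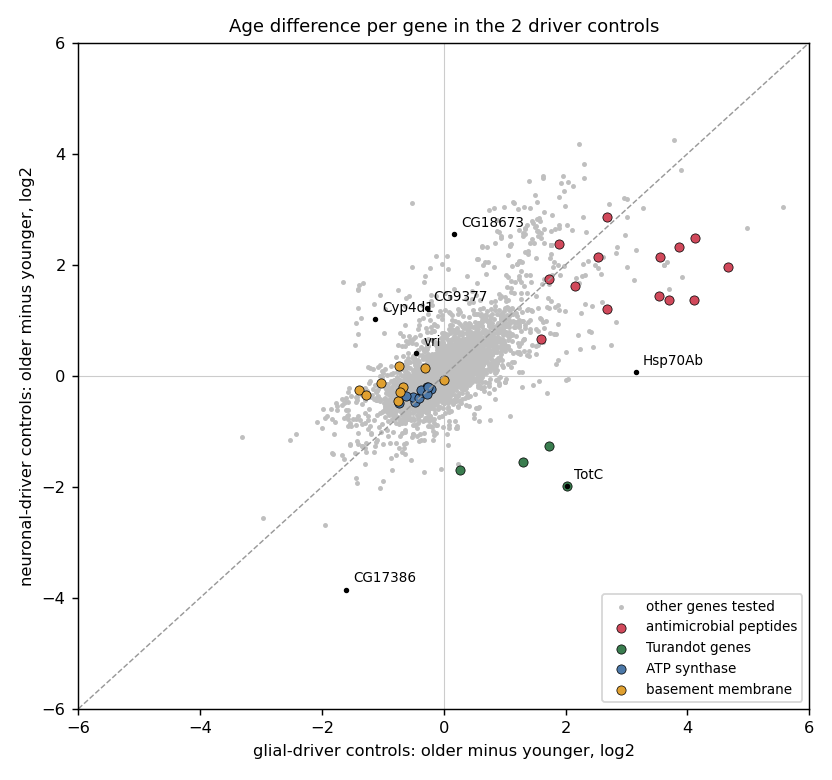
Difference between older and younger heads per gene in elav-GAL4/+ controls (vertical, 29 against 28 °C) and repo-GAL4/+ controls (horizontal, 28 °C at all ages), in log2(value + 1). Grey points are genes tested in both, coloured points are members of 4 lists, and the dashed line marks equal differences. Turandot genes lie below and to the right of that line, and antimicrobial peptides are above 0 on both axes.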

How the data were processed

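Polyadenylated RNA of whole heads was sequenced after a stranded library preparation, per the labels' protocols. Per the submitters' processing notes, the tools named were CASAVA 1.8.2, Bowtie 0.12.0, RSEM 1.1.19 and DESeq2, with genome build dm3. The deposited table gives a normalised expression signal per gene and library, not counts, in which every library has an upper quartile of 1000. Its 13557 genes carry symbols and FlyBase identifiers, and no column was left unmapped. In the 17 libraries used, 92.6% to 94.6% of low values were whole multiples of 1 step (which gave the estimated depth), too few to recover reads for a count test. No coordinates are given, since the annotation at hand is of a later build. Current names come from it by identifier.

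Differences were computed here with limma 3.58.1 in R 4.3.3 on log2(value + 1), for genes that reached 10 in 3 or more libraries, with 6 age means and a mean-variance trend, and adjusted over all genes tested. The comparison between drivers used 35 libraries. The procedure was tested on simulated data. The 43 gene lists matched 1086 entries by symbol and 45 by identifier, and 9 were not matched. Genes named are checks (elav, repo, w, roX and yolk genes), the 10 largest rises and falls among called genes with separate groups, up to 3 per direction and list, up to 5 per direction called in all 3 age comparisons, and up to 4 per direction that differ between drivers. Members and lists were chosen with earlier results of these data known. Alternatives were the pseudocount, the filter, the scaling, the label prefix, the replicate block, the libraries and ages in the fit, and leaving out each library. Leaving out day 22 was added after seeing the data. Libraries with the same replicate number were not paired, because the labels give the number no meaning.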

Additional observations from a re-analysis of the deposited data

Results flagged for a closer look

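In 8 of the 302 sets of libraries examined (151 genes in older and in younger heads), 1 library stood far from the rest, and chance alone gives this in about 1 set in 20. Among older libraries Nplp4 was highest in day 20 replicate 2 with 300.2, Rh6 was lowest in day 20 replicate 1 with 13544, cry was lowest in day 18 replicate 3 with 4078, Obp56a was lowest in the same library with 2643, and Eaat1 was lowest in day 22 replicate 3 with 5304. Among younger libraries day 11 replicate 1 had the lowest values of alphaTry, with 6.17, and of Bace, with 10.3, and the highest of CG17108, with 42784.

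The age difference was not the same in elav-GAL4/+ and repo-GAL4/+ heads, at an adjusted p under 0.05 in limma, for 48 of the 151 genes given with values. The values here are elav-GAL4/+ minus repo-GAL4/+ age differences in log2 units. Stress genes were lower, with TotC at -4.02, Hsp70Ab at -3.09, TotA at -2.99, TotM at -2.84, TotX at -1.97, DnaJ-1 at -1.57, Hsp70Bbb at -1.28, Hsp83 at -1.16 and Hsc70-3 at -0.59, while l(2)efl was higher at 1.03. Genes of the eye, clock and peptide signalling were at -0.58 for pinta, -0.48 for t, -0.44 for Gbeta76C, -0.28 for Rh3, -0.31 for Pdf and -0.38 for ImpL2, and at 0.63 for tim, 0.68 for ninaD, 0.86 for vri and 1.065 for Nplp4. Blood cell and basement membrane genes were higher, with Pxn at 0.44, Hml at 0.62, LanB2 at 0.92 and vkg at 0.92.

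Metabolic genes lay at -0.75 for Cyp6a21, -0.57 for Cyp4p2, -0.57 for Atg1, -0.32 for Fer1HCH, 0.28 for Atg2, 0.28 for Tsf3, 0.40 for ACC, 2.14 for Cyp4d1 and 2.38 for CG18673. Muscle and cuticle genes lay at -1.39 for Act88F, -0.43 for Cpr49Ae and 1.27 for Cpr64Ac. The remaining genes were CG17386 at -2.24, CG1979 at -1.02, CG34134 at -0.77, CG17108 at -0.69, CG30263 at -0.57, CG4000 at -0.49, h at -0.39, CG10553 at -0.33, CG14523 at 0.87, CG11741 at 1.26, CG9377 at 1.50 and CG30059 at 2.10.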

How the results depend on the processing

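Depth limits chiefly genes of low value, such as chemoreceptors and ovary markers. The 4518 genes called between older and younger heads became 2811 and 2352 within the label prefixes of 7 and 10 libraries, 1597 with the left-out day 11 library and 2172 between days 18 and 11, and lay between 4032 and 4525 without single libraries. Between days 22 and 18 the 2537 genes became 1222 and 936 within the prefixes, 213 with that day 11 library and 1314 with the libraries of the 2 ages alone (1925 to 2553 without single libraries). Between days 11 and 7 the 849 genes became 476, 99, 141 and 482 in the same order. They lay between 329 and 934 without single libraries, with 517 without day 7 replicate 1, 363 without day 11 replicate 1 and 329 without day 11 replicate 3. For the difference between drivers the 1039 genes became 5 and 614 within the prefixes and 384 with the day 11 library, and lay between 813 and 1631, the highest without glial-driver day 22 replicate 1. Fewer libraries enter the fit within a prefix. The cause of these changes in count was not tested for any setting. With a replicate block the counts were 4567, 2660, 955 and 1026, and it ended 1 call among the 151 named genes. Same-numbered libraries correlated between -0.23 and 0.23 and 6 of 17 correlated best with their own number.

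Of 5255 alternative values for the 151 genes, 5006 kept direction and side of the threshold, 228 lost the call, 6 gained it and 15 changed sign. Day 22 against day 7 gave 0.76 for Hsp83, 0.49 for DnaJ-1, 0.24 for Hsc70-3, 0.16 for ninaD, -0.051 for wrapper, -0.20 for LanB2 and -0.24 for bmm. Day 18 against day 11 gave 0.061 for vkg, 0.13 for ACC, -2.38 for osk, -2.16 for Vm26Aa, 1.04 for CG1979, -0.41 for CG11741 and -0.10 for h. With the left-out library Syt1 stood at 0.071 and CG4000 (day 11 against day 7) at 0.35. Between drivers, puc stood at -0.40 with day 7 as the younger age in both and CG10553 at 0.15 within 1 prefix. The cause of these changes of sign was not tested.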
